A study of Homo sapiens with 39 samples.

Results

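The comparison described here is the whole-genome CRISPR knockout screen of A375 cells lacking MED12, read at day 8 of vemurafenib treatment against DMSO. It takes 6 of the 39 libraries in the series, chosen by their labels: 3 from cells grown in vemurafenib at 2 µM and 3 from cells grown in the solvent DMSO for the same 8 days. A375 is a melanoma line driven by an activating BRAF mutation, and vemurafenib inhibits the mutant BRAF kinase. Both arms, and the 3 day-0 libraries used as the starting point, are labelled MED12 knockout, so no arm of MED12-proficient cells was compared. The labels do not say whether the knockout line was 1 clone or whether every cell had lost MED12. Nothing in them says that replicates were infected or cultured separately. Libraries of the same replicate number did share guide differences already present at day 0. Deviations from group means correlated at 0.635 to 0.650 between day-0 and day-8 libraries of the same number. The p-values of single guides measure the spread between these libraries that the replicate number leaves. That spread may be technical, which was not tested.

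MED12 belongs to the kinase module of Mediator, the complex that links transcription factors to RNA polymerase II, and its loss is known to let BRAF-mutant melanoma cells tolerate BRAF inhibitors. In such cells BRAF signals to ERK through MEK, and the inhibitor can be bypassed when receptor tyrosine kinases feed RAS through the adaptors SHC1 and GRB2, the phosphatase PTPN11 and the exchange factor SOS1. NF1 and the SPRED proteins switch RAS off again. In a pooled knockout screen each cell carries 1 guide RNA, and a guide that becomes more frequent marks a gene whose loss favours growth in that arm, while a guide that becomes rarer marks a gene whose loss hinders it.

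The library held 77441 guides, of which 76441 named 19113 genes, nearly all with 4 guides each, and 1000 had no target. The 6 libraries of day 8 held between 73465751 and 87591804 reads, with median counts per guide of 514 to 650 in vemurafenib and 637 to 682 in DMSO. Between 1469 and 1717 guides had no read in a vemurafenib library, against 1752 to 2038 in a DMSO library. The 100 most abundant guides took 2.09% to 2.20% of the reads in vemurafenib, 1.55% to 1.65% in DMSO and 0.671% to 0.685% at day 0. Reads come from PCR without molecular identifiers named in the labels, so they are not independent molecules. As the cells are labelled MED12 knockout, MED12 guides were examined first. Their summed abundance was 47.0, 66.8 and 51.2 CPM (read counts scaled to library size) in the vemurafenib replicates 1, 2 and 3. In the DMSO replicates it was 55.2, 63.0 and 45.8 CPM. The median log2 fold change over the 4 MED12 guides was -0.17 (edgeR/RRA adjusted p = 1). Genomic DNA holds no expression, so the melanoma identity of the cells could not be read from marker levels. Against day 0, guides to the melanocyte factors MITF and SOX10 changed by medians of 0.15 and 0.23 in vemurafenib and 0.14 and 0.16 in DMSO, and guides to BRAF by -1.85 in vemurafenib and -1.54 in DMSO, none past the threshold (edgeR/RRA adjusted p between 0.772 and 1).

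After 8 days few genes were called between the arms. Guides against 2 genes were enriched in vemurafenib, ELAVL1 and RBM12, and guides against 3 were depleted, SLC35B2, GRB2 and EXTL3. Each guide was tested with edgeR with the replicate number as a block. The ranks of the 4 guides to a gene were merged into 1 p by robust rank aggregation (RRA). Gene p-values were adjusted over 19102 genes with a threshold of 0.05. A gene p measures how closely the guides to a gene rank together among all guides, not the spread between libraries alone. The calls make up 0.0105% of the genes tested in the enriched direction and 0.0157% in the depleted direction. At an unadjusted p under 0.05 there were 547 genes (2.86%) on the enriched side and 500 (2.62%) on the depleted side, together 1047, where 955.1 would be expected if no gene differed. None of the 77158 guides tested passed by itself, with 556 at an unadjusted p under 0.05. That level was reached by 0.726% of gene-targeting and 0.301% of untargeted guides, fewer than expected if no guide differed. The guide test in this fit was therefore conservative. In a fit to only the 6 day-8 libraries, 3478 of 75851 guides were at that level and 1 passed. The common dispersion, a measure of spread between libraries, was 0.130 there, against 0.263 with day 0 included.

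The spread behind these counts was wide. Between vemurafenib and DMSO libraries of the same replicate number, the log2 abundance of gene-targeting guides differed with an SD of 0.858 to 0.897, that of olfactory receptor guides with an SD of 0.743 to 0.830, and that of untargeted guides with an SD of 0.436 to 0.447. Untargeted guides were also more abundant, with a median of 39.0 CPM at day 8, against 11.7 CPM for olfactory receptor guides and 10.2 CPM for all gene-targeting guides. Differences in gene score between the arms correlated across 19102 genes with a Pearson r of 0.0469 to 0.0528 between replicate numbers, a description in which genes are not independent replicates. The middle 50% of genes had a median log2 fold change between -0.13 and 0.17, and the middle 90% between -0.36 and 0.46.

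ELAVL1 encodes HuR, an RNA-binding protein that stabilises many messenger RNAs. Its guides summed to 62.0, 72.9 and 102 CPM in the vemurafenib replicates, against 40.0, 37.0 and 49.2 CPM in the DMSO replicates, so that the arms did not overlap. All 4 guides were higher in vemurafenib, by log2 values of 0.63 to 1.06 with a median of 0.85 (edgeR/RRA adjusted p = 0.00211). RBM12, an RNA-binding protein with a less defined role, had 77.6, 167 and 146 CPM in vemurafenib, against 58.5, 71.6 and 94.8 CPM in DMSO. The arms overlapped, since the first vemurafenib library lay below the third DMSO library, but vemurafenib was higher within each replicate number. RBM12 guides rose by a median log2 of 0.96 (edgeR/RRA adjusted p = 0.0141), with 1 guide at 0.03 and the other 3 between 0.74 and 1.41. Here and below, whether arms overlap only describes the values, since the share of all genes without overlap is not given.

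GRB2, the adaptor that carries SOS1 to activated receptors, showed the largest fold difference among the 5 called genes. Its guides summed to 17.8, 20.4 and 13.1 CPM in vemurafenib, against 67.0, 65.2 and 33.0 CPM in DMSO, with no overlap. The median log2 fold change was -1.81 (edgeR/RRA adjusted p = 0.0383), and the 4 guides ranged from -3.18 to -0.58. SLC35B2 carries the sulfate donor PAPS into the Golgi, where glycans such as heparan sulfate are sulfated. It had 21.2, 13.8 and 13.4 CPM in vemurafenib, against 46.1, 32.0 and 22.4 CPM in DMSO, so the highest vemurafenib library lay just under the lowest DMSO library. The median log2 fold change was -1.10 (edgeR/RRA adjusted p = 0.00846), with 3 guides between -1.21 and -1.05 and the fourth, the least abundant at 0.08 to 0.74 CPM in vemurafenib and 0.08 to 0.28 CPM in DMSO, at 1.05. EXTL3 encodes a glycosyltransferase that starts heparan sulfate chains. Its guides had 73.3, 81.0 and 46.8 CPM in vemurafenib, against 132, 152 and 77.9 CPM in DMSO, with the second vemurafenib library above the third DMSO library. Within replicate numbers the gene score, the mean log2 CPM over guides, differed by -0.87, -0.87 and -0.90, and the median guide changed by -0.89 (edgeR/RRA adjusted p = 0.0383).

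**Figure D1:**
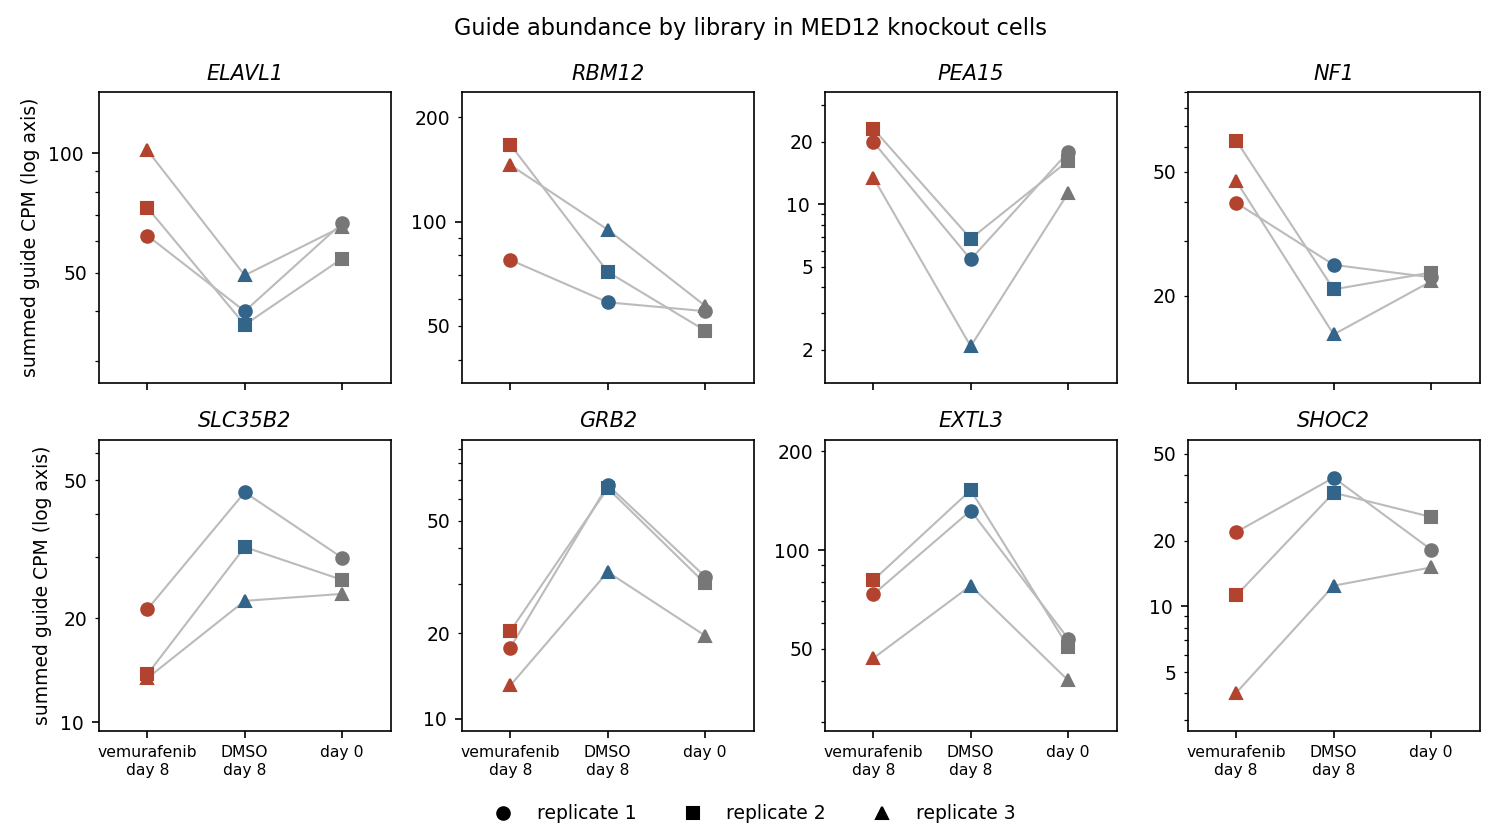
Summed CPM over the 4 guides of each gene (log axis) in vemurafenib at day 8, DMSO at day 8 and day 0; each point is 1 library, shapes mark the replicate number and grey lines join libraries of the same number. GRB2 and SLC35B2 have all 3 vemurafenib libraries below the 3 DMSO libraries, ELAVL1, PEA15 and NF1 have them above, and PEA15, NF1 and SHOC2 did not pass the adjusted threshold.

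These 5 genes were called on the ranks of their guides, and a test on the gene score called none of them. The score changed by 0.82 ± 0.21 for ELAVL1, 0.82 ± 0.21 for RBM12, -0.65 ± 0.41 for SLC35B2, -2.10 ± 0.40 for GRB2 and -0.88 ± 0.20 for EXTL3. The ± values are moderated SEs from the limma fit to 9 libraries (3 per arm and 3 at day 0). They are not the spread of the 3 differences within replicate numbers. The limma test called no gene (limma adjusted p = 1 for each of the 5). It had 368 genes at an unadjusted p under 0.05, where 955.1 would be expected if no gene differed, so it was conservative here. Each of the 5 kept its sign under all 21 other settings, but each was past the threshold in only 9 to 11 of them. In the fit without the replicate block ELAVL1, RBM12 and PEA15 passed and none of the 3 depleted genes did, and leaving out 1 library or 1 replicate number left between 0 and 6 calls.

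**Figure D2:**
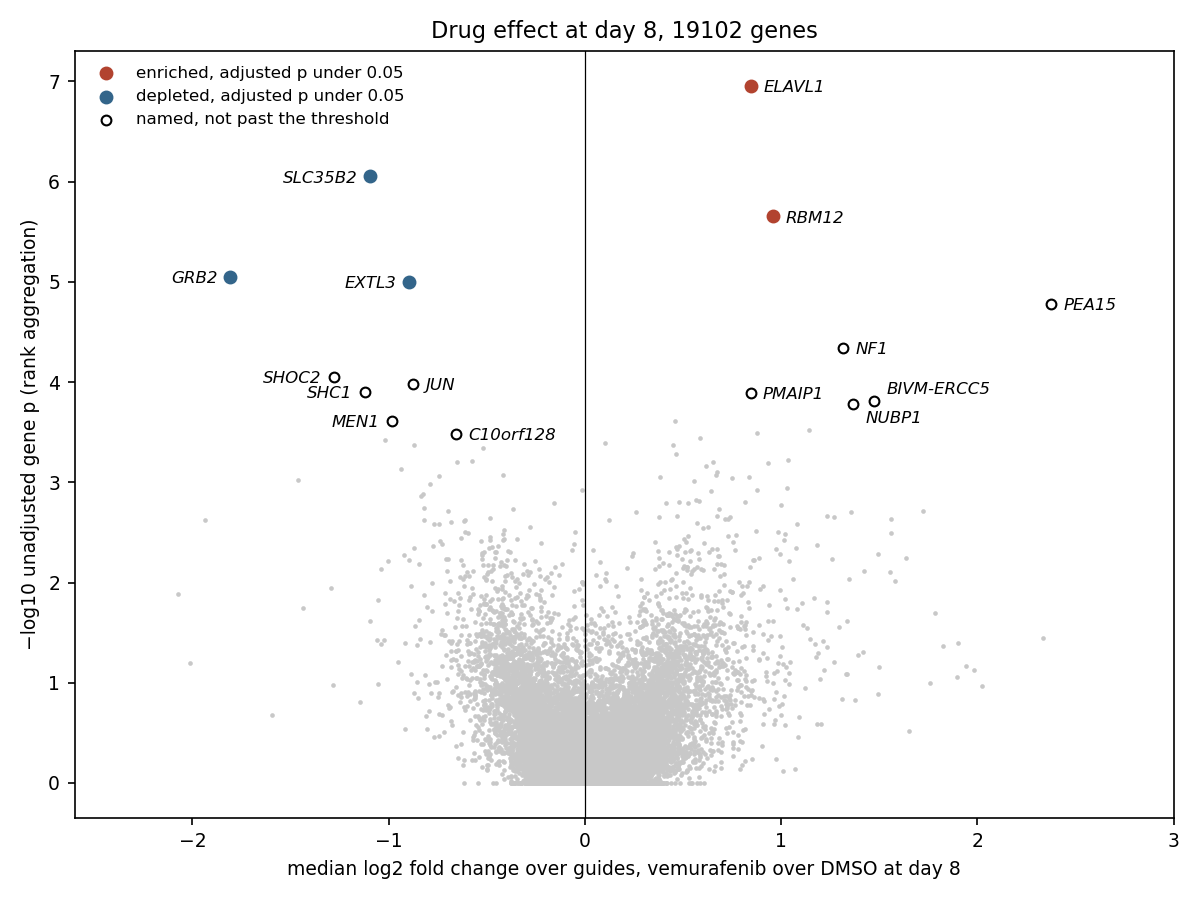
Median log2 fold change over guides, vemurafenib over DMSO at day 8, against −log10 of the unadjusted gene p for 19102 genes (grey points); filled points passed the adjusted threshold and open points are named genes that did not. ELAVL1 and RBM12 on the right and SLC35B2, GRB2 and EXTL3 on the left are the 5 called genes, and PEA15 lies farthest right among the named genes at 2.37.

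The genes next in rank did not pass, and 5 of them on each side are described here. PEA15, a phosphoprotein that binds ERK and keeps it in the cytoplasm, came closest. Its guides had 20.0, 23.1 and 13.5 CPM in vemurafenib, against 5.44, 6.84 and 2.07 CPM in DMSO, with a median log2 fold change of 2.37 (edgeR/RRA adjusted p = 0.0526). NF1, the GTPase-activating protein that inactivates RAS, had 39.7, 62.9 and 46.6 CPM in vemurafenib, against 25.1, 21.0 and 15.0 CPM in DMSO, with all 4 guides between 0.96 and 1.50 and a median of 1.32 (edgeR/RRA adjusted p = 0.123). Both genes had arms that did not overlap. PMAIP1, which encodes the pro-apoptotic protein NOXA, had a median of 0.84, the iron-sulfur cluster assembly factor NUBP1 1.37 and the read-through locus BIVM-ERCC5 1.47 (edgeR/RRA adjusted p = 0.224, 0.244 and 0.244). BIVM-ERCC5 is annotated across BIVM and ERCC5, whose own guides had medians of 0.23 and -0.18, so its guides may cut a shared sequence and its value is uncertain. NUBP1 guides were rare in both arms, at 5.15, 3.70 and 3.80 CPM in vemurafenib and 1.82, 1.37 and 4.56 CPM in DMSO, and the arms overlapped.

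On the depleted side the next genes were SHOC2, a scaffold that activates RAF kinases downstream of RAS, with a median of -1.28, JUN, a subunit of the AP-1 transcription factor, with -0.88, and SHC1 with -1.12 (edgeR/RRA adjusted p = 0.211, 0.221 and 0.224). MEN1, a scaffold of MLL histone methyltransferases, had -0.98, and C10orf128 had -0.66 (edgeR/RRA adjusted p = 0.313 and 0.351). SHOC2 guides had 21.9, 11.2 and 4.02 CPM in vemurafenib, against 38.9, 33.2 and 12.4 CPM in DMSO. The arms overlapped across replicate numbers, because the third replicate was low in both. MEN1 was lower in vemurafenib by its summed abundance in all 3 numbers, at 15.9, 9.73 and 5.17 CPM against 30.4, 16.4 and 13.3 CPM in DMSO, while its gene score in the second number was higher by 0.83.

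**Figure D3:**
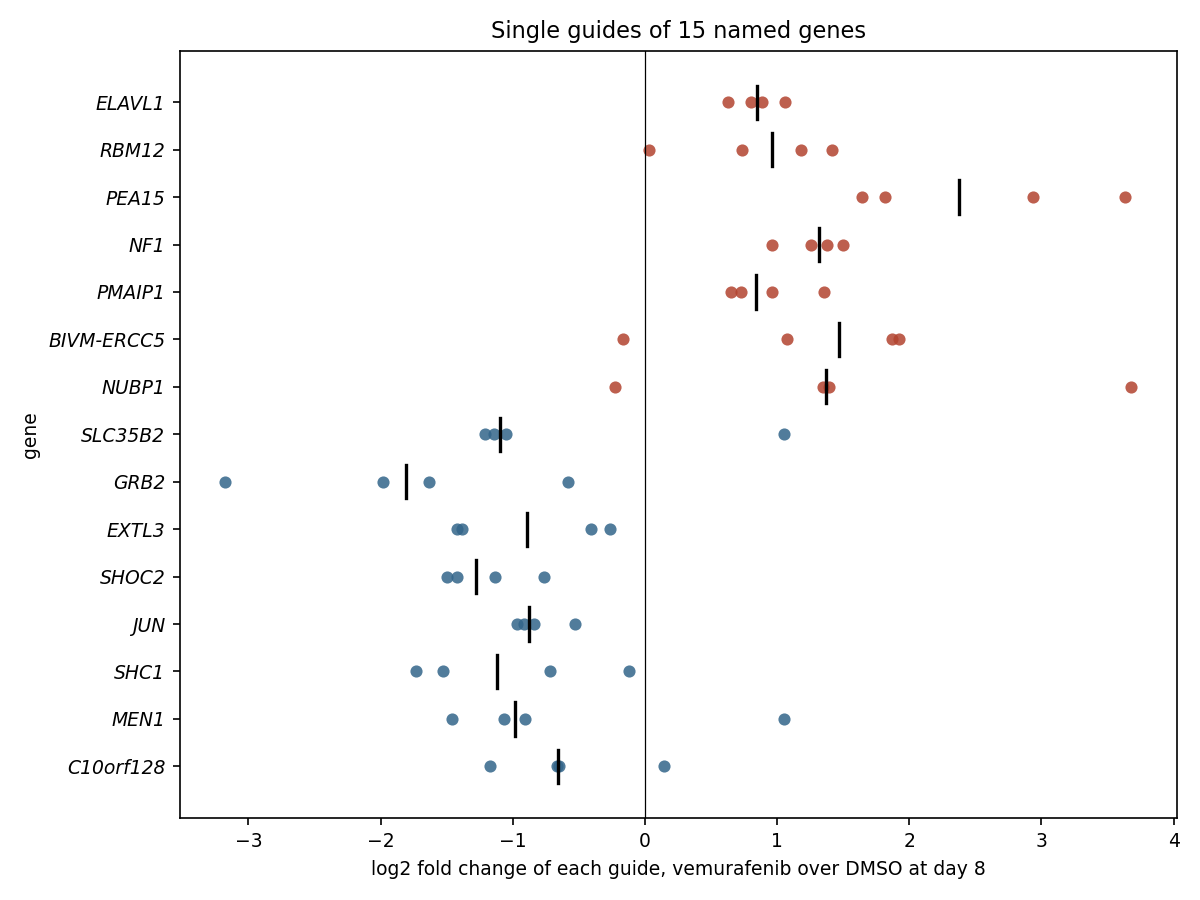
Log2 fold change of every guide, vemurafenib over DMSO at day 8, for 7 genes named on the enriched side (upper rows) and 8 on the depleted side (lower rows); each point is 1 guide and the black bar is the median of 4. ELAVL1, RBM12, PEA15, NF1 and PMAIP1 have 4 guides above 0, GRB2, EXTL3, SHOC2, JUN and SHC1 have 4 below, and the other 5 genes have 1 guide of 4 on the opposite side.

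Among 31 receptor kinases and adaptors to RAS, 1 was called, GRB2. At an unadjusted p under 0.05, 6 were on the depleted side, where 2.62% of all genes were, and 2 on the enriched side. Besides GRB2 and SHC1, the depleted ones were PTPN11 (median log2 -1.46), the receptor EGFR (-0.74), the receptor FGFR3 (-0.31) and the receptor substrate FRS2, whose median was 0.30 although its rank-based p lay on the depleted side. PTPN11 guides had 14.7, 8.61 and 5.23 CPM in vemurafenib, against 43.7, 26.0 and 11.9 CPM in DMSO, and EGFR guides 68.0, 133 and 68.0 CPM in vemurafenib, against 154, 150 and 101 CPM in DMSO. Each gene was lower in vemurafenib within all 3 numbers, and for both the arms overlapped. The SRC-family kinase YES1 and the docking protein GAB1 were the 2 on the enriched side by the rank-based p, where 2.86% of all genes were, although GAB1 had a median of -0.23 with 2 guides above 0 and 2 below. The median over the 31 genes was -0.07, against 0.02 over all genes tested.

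Of 19 genes of the RAS-RAF-MEK-ERK core, SHOC2 was on the depleted side at an unadjusted p under 0.05, where 2.62% of all genes were. The ERK-activated kinase RPS6KA1 was on the enriched side at that level, where 2.86% of all genes were. No other member was at that level, and none was called. BRAF itself had 11.4, 13.1 and 10.3 CPM in vemurafenib, against 15.9, 11.5 and 17.4 CPM in DMSO, with overlapping arms and a median of -0.34 (edgeR/RRA adjusted p = 1). The gene score of BRAF differed by -1.76, 1.24 and -0.33 within the replicate numbers, so its direction differed between them.

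Of 27 brakes on RAS and ERK tested, 7 were on the enriched side at an unadjusted p under 0.05, against 2.86% of all genes, namely NF1, SPRED2, SPRED1, DUSP4, LZTR1, PPP2CA and RASAL2. SPRY4 was on the depleted side, with none called and a list median of 0.08. SPRED1 and SPRED2 bring NF1 to the membrane, DUSP4 dephosphorylates ERK and LZTR1 directs RAS to degradation. SPRED2 guides had 65.6, 51.3 and 48.3 CPM in vemurafenib, against 37.6, 29.9 and 27.5 CPM in DMSO, and SPRED1 guides averaged 169 ± 34.4 CPM in vemurafenib and 115 ± 13.7 CPM in DMSO (SD, n = 3 libraries each). Neither pair of arms overlapped, and the medians were 0.65 and 0.48 (edgeR/RRA adjusted p = 0.411 and 0.556).

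The list of 20 tested genes linked to BRAF-inhibitor resistance shares NF1, SPRED1, SPRED2, DUSP4 and LZTR1 with the brakes. Those 5 were on the enriched side at an unadjusted p under 0.05, where 2.86% of all genes were. No other member of the list was at that level. The list median was 0.26. Within all 3 replicate numbers 10 of the 20 were higher in vemurafenib, against 3014 of 19102 over all genes. Members known from other screens of this kind did not pass here. NF2, the upstream regulator of the Hippo pathway, had a median of 0.34, the SAGA subunit TADA2B 0.44, the NRF2 regulator KEAP1 0.23 and its ligase scaffold CUL3 0.04 (edgeR/RRA adjusted p = 0.958, 1, 1 and 1). All 4 guides were above 0 for NF2 and KEAP1, 3 of 4 for TADA2B and 2 of 4 for CUL3. In the epigenetic screen of MED12 knockout cells described further on, NF2 and TADA2B were enriched, with medians of 0.24 and 0.30 (edgeR/RRA adjusted p = 0.0269 and 0.0255). NF2 guides stood at 395, 265 and 503 CPM in vemurafenib, against 281, 208 and 226 CPM in DMSO and 71.7, 82.5 and 77.1 CPM at day 0.

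No gene of Mediator was at an unadjusted p under 0.05, among 6 tested in the kinase module, 9 in the tail and 16 in the head and middle. Over all genes tested, only 2.86% were at that level on the enriched side and 2.62% on the depleted side. Lists this small can therefore hold few or none without differing from other genes. The list medians were -0.09, 0.15 and 0.09. MED23, a tail subunit, had 50.2, 52.4 and 66.9 CPM in vemurafenib, against 48.2, 44.5 and 41.2 CPM in DMSO, with every vemurafenib library higher and a median of 0.15 (edgeR/RRA adjusted p = 1). The 27 SAGA and ATAC subunits, which form histone acetyltransferase coactivators, had a median of 0.29 with 1 gene, DR1, at an unadjusted p under 0.05.

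SETDB1, the histone methyltransferase that silences repeats together with TRIM28 and the HUSH complex, had 194, 242 and 235 CPM in vemurafenib, against 98.1, 95.3 and 135 CPM in DMSO and 33.0, 30.3 and 33.9 CPM at day 0. The arms did not overlap and the median was 1.02, but the gene did not pass (edgeR/RRA adjusted p = 0.670). Of the 18 genes of that list, SETDB1 and MORC2 were at an unadjusted p under 0.05 on the enriched side and the methyltransferase EHMT2 on the depleted side. Over all genes tested, 2.86% were at that level on the enriched side and 2.62% on the depleted side. TP53BP1, a protein of the response to DNA breaks, had a median of 0.29 (edgeR/RRA adjusted p = 0.978).

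None of the members of the lists below was called, and their counts at an unadjusted p under 0.05 stand against 2.86% of all genes on the enriched side and 2.62% on the depleted side. Of 20 melanocyte lineage factors, 2 were on the depleted side at that level, the AP-2 factors TFAP2C (-0.52) and TFAP2A (-0.41), and none on the enriched side. Of 15 genes of RNA m6A methylation, RBM15 (0.47) and ZC3H13 (0.68) were on the enriched side, and of 26 genes of iron-sulfur cluster assembly NUBP1, GLRX5 (0.67) and FDX1 (0.75). Of 16 G1 drivers, CCND1, the cyclin of CDK4 and CDK6, had 1.30 on the enriched side, and CDK2 (-0.49) and CCNE1 (-0.12) were on the depleted side. Among 87 cytosolic ribosomal proteins, 8 were enriched and 2 depleted at that level, with a median of 0.18, and among 77 mitochondrial ribosomal proteins 7 were enriched and none depleted, with a median of 0.14. The 374 olfactory receptors, which melanoma cells are not known to need, had 10 on the enriched and 11 on the depleted side and a median of 0.0006.

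Each arm was also set against the day-0 libraries, which both arms share, so the values are given side by side only. In vemurafenib 6 genes were enriched (0.0314% of those tested) and 31 depleted (0.162%), and in DMSO 7 were enriched (0.0366%) and 70 depleted (0.366%). Guides to RBM15 and MORC2 rose against day 0 in both arms, by medians of 2.67 and 2.42 in vemurafenib and 2.22 and 1.91 in DMSO (edgeR/RRA adjusted p between 4.79e-08 and 0.000779). The 87 ribosomal proteins, which cells need to grow, had a median change of -2.03 in vemurafenib and -2.45 in DMSO.

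The medians of the 5 called genes against day 0 are descriptions. ELAVL1 stood at 0.33 in vemurafenib and -0.50 in DMSO, and RBM12 at 0.99 and 0.47 in the same order. GRB2 stood at -1.28 in vemurafenib and 0.08 in DMSO, SLC35B2 at -0.95 in vemurafenib and 0.17 in DMSO, and EXTL3 at 0.23 in vemurafenib and 0.93 in DMSO, none of them past the threshold in either arm. PEA15 was depleted in DMSO by a median of -3.82 (edgeR/RRA adjusted p = 0.0363), while in vemurafenib it stood at -0.55 (edgeR/RRA adjusted p = 1). NUBP1 likewise passed in DMSO at -3.32 (edgeR/RRA adjusted p = 0.0048), and in vemurafenib it stood at -2.12 (edgeR/RRA adjusted p = 0.0534). For both genes the difference between the arms is the drug effect given above, which did not pass.

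**Figure D4:**
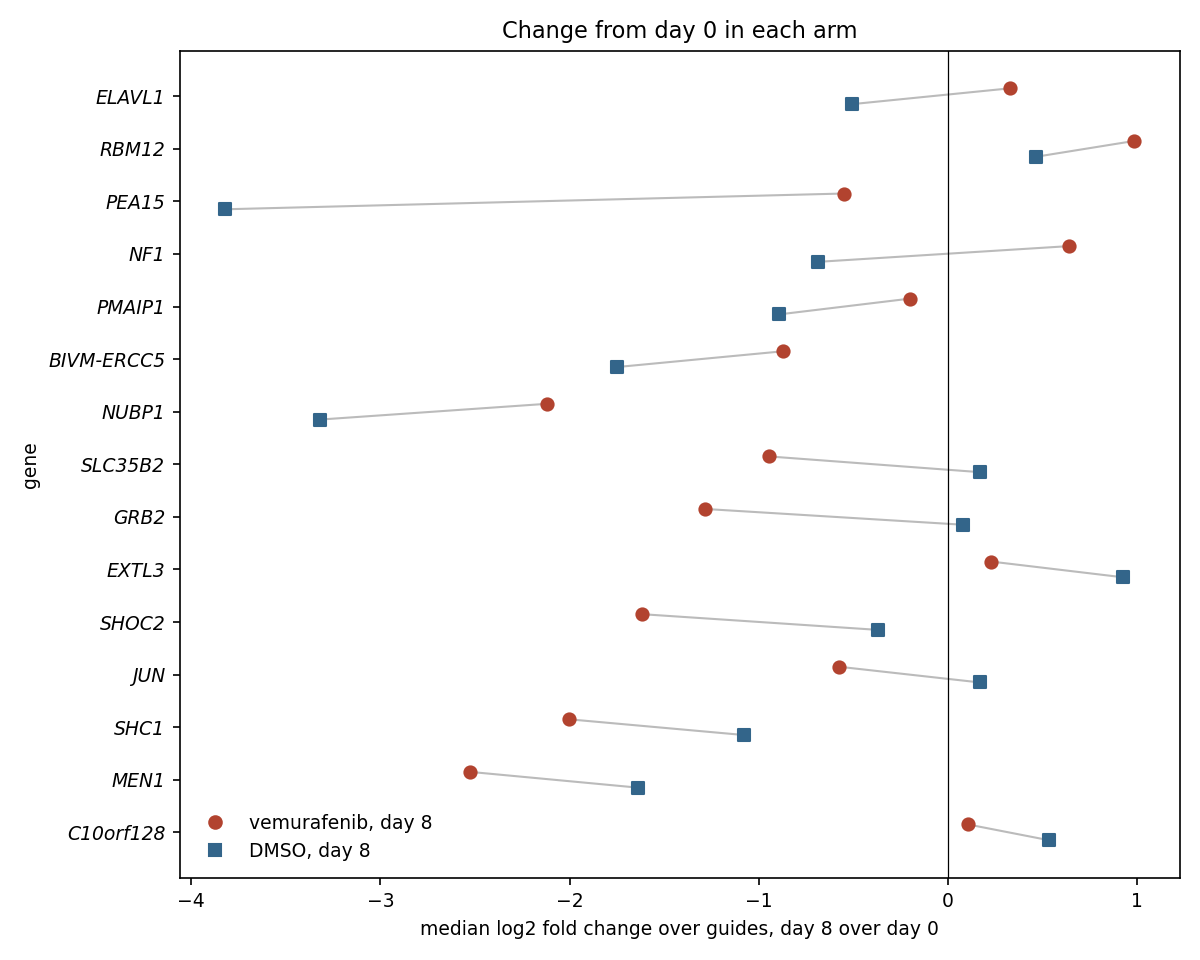
Median log2 fold change over guides against day 0 for 15 named genes, in vemurafenib (circles, above) and in DMSO (squares, below) at day 8. PEA15 and NUBP1 lie far left in DMSO, at -3.82 and -3.32, and GRB2 lies left of 0 in vemurafenib at -1.28 and near 0 in DMSO.

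At day 14, read in other libraries of the same replicate numbers, the drug effect of GRB2 was -3.65 (edgeR/RRA adjusted p = 0.0453), and GRB2 was the only gene called there (0.00524% of 19101, on the depleted side). The medians of ELAVL1, RBM12, SLC35B2 and EXTL3 were 1.38, 2.13, -1.49 and -1.80, and those of PEA15, NF1 and SHOC2 were 5.34, 2.24 and -3.06 (edgeR/RRA adjusted p between 0.0509 and 0.95). The test of the difference, day 14 minus day 8, called no gene, with 1019 at an unadjusted p under 0.05. GRB2 had the lowest of the p-values among the named genes in that test, with a median difference of -2.22 (edgeR/RRA adjusted p = 0.713).

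An epigenetic library screened in MED12 knockout cells with the same drug, dose and day, with 10 guides per gene, called 18 genes enriched (1.61% of 1115) and 16 depleted (1.43%). It shares no library with the whole-genome screen and 1090 genes with it, though none of ELAVL1, RBM12, SLC35B2, GRB2, EXTL3 and PEA15. Of its 17 enriched genes that the whole-genome screen tested, 15 had a median above 0 there, and of its 16 depleted genes 15 had one below 0, where 57.8% of all shared genes were above 0. At an unadjusted p under 0.05 in the whole-genome screen were 5 of the 17, NF1, SETDB1, SMAD4 and METTL17 among them, and 9 of the 16, PTPN11, EGFR, MEN1, KMT2D, CDK13, UBE2A, SMARCC1, BPTF and CDK2, all in the same direction as in the epigenetic screen. Of all 1090 shared genes, 42 were at that level on the enriched side and 40 on the depleted side. NF1 had a median of 1.07, SETDB1 0.80, PTPN11 -0.54, EGFR -0.41 and MEN1 -0.35 in the epigenetic screen (edgeR/RRA adjusted p between 2.59e-14 and 0.024). BRAF went against this, with -0.34 in the whole-genome screen, where it did not pass, and 0.35 in the epigenetic screen, where it was enriched (edgeR/RRA adjusted p = 0.00055). Across the 1090 genes the medians of both screens had a Pearson correlation of 0.271, given as a description, since genes are not independent replicates.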

How the data were processed

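Guides were amplified from genomic DNA and sequenced in the whole-genome screen of A375 MED12 knockout cells. The values the authors deposited are unnormalized counts of reads for every guide in every library. The submitters' processing notes name bcl2fastq, HISAT2 and HTSeq. Their versions, and the reference that reads were aligned to, are not stated in the labels or files. Of 19113 symbols, 18221 are current and 840 are older names in the RefSeq gene table.

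The main fit took 9 libraries (vemurafenib and DMSO at day 8, and day 0) and used edgeR 4.0.16 (R 4.3.3). Its filterByExpr, at a least count of 10 and a least total of 15, left 77158 guides. TMM set the library sizes, and a quasi-likelihood model held group and replicate number. The numbers pair the libraries. Deviations from group means correlated at 0.838 to 0.844 between vemurafenib and DMSO libraries of the same number over 77158 guides. Against day-0 libraries of the same number they correlated at 0.635 to 0.642 in vemurafenib and 0.638 to 0.650 in DMSO. Between different numbers vemurafenib and DMSO libraries correlated at most at -0.383. Subtracting group means makes such values negative, so they are no separate evidence of pairing. Ranks of signed p were combined per gene by RRA (alpha 0.25, exact null, at least 3 guides). The gene p, 2 times the smaller of both directions, was adjusted by Benjamini-Hochberg over 19102 genes (11 genes were not tested). Gene scores (0.5 added) were fitted with limma 3.58.1. Day 14 and its difference from day 8 came from a fit to all 15 libraries, and the epigenetic screen from its own 9 libraries. Summed CPM are given per library.

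Up to 15 passing genes per direction could be named, and where fewer than 8 passed, those of lowest p filled the side to 8. Passing members of the gene lists, up to 4 examples per list, and MED12, MED23, BRAF, NF1, NF2, CUL3, KEAP1, TADA2B, SETDB1 and TP53BP1 could be named too. Other list members at an unadjusted p under 0.05, the genes called in the epigenetic screen and the heparan and chondroitin sulfate genes were named after their values were seen. Results on 1 gene that the rule names, and a list built around it, are not reported here. The comparison, the lists and the tests were chosen with earlier results of these data known. The steps were tested on simulated data with 50 genes changed by each size among 19080. They called 90% of genes with a log2 change of 2 or -2, 16% with 1 and 10% with -1, and 1 unchanged gene. All guides to a changed gene were given the same change there. Alternatives covered the block, the libraries fitted, scaling, the filter, the rank rule, limma, summed counts, DESeq2 1.42.0 and leaving out each library or replicate number.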

Additional observations from a re-analysis of the deposited data

How the results depend on the processing

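The drug effect at day 8 called 5 genes in the main fit, and 5 again with only the 6 day-8 libraries, scaling on untargeted guides, total counts, no filter, a mean count of at least 30, other rank rules or DESeq2, though with the 6 libraries RBM12 and GRB2 (edgeR/RRA adjusted p = 0.051 each), with total counts GRB2 (0.0526) and with DESeq2 RBM12 (DESeq2/RRA adjusted p = 0.0537) did not pass. The fit to all 15 libraries called 1 gene, GRB2, and limma on gene scores and edgeR on summed counts each called 0, with 368 and 195 at an unadjusted p under 0.05. For limma, 955.1 would be expected at that level if no gene differed. Without the replicate block the drug effect called 3 genes, DMSO against day 0 called 30 in place of 77, vemurafenib against day 0 called 35 in place of 37, the epigenetic screen 25 in place of 34 and the difference between days 0 in both. Leaving out 1 library or replicate number gave 0 to 6 drug-effect calls: 0 without vemurafenib replicate 2 or without replicate number 3, 1 without vemurafenib replicate 3, DMSO replicate 1, 2 or 3 or number 2, 4 without vemurafenib replicate 1 and 6 without number 1. Of the named genes not called in the main fit, PEA15 passed in 5 of the 21 other settings and NF1 in 2. NF1 passed without DMSO replicate 1 and without number 1 (edgeR/RRA adjusted p = 0.00531 and 0.0497). The difference between days called 0 genes, but 2, both lower at day 14, without number 2. No named gene reversed past the threshold. The cause of these changes was not tested. Guides with few reads, as for NUBP1 and PEA15, and 3 libraries per arm limit the precision. In the simulated data changes of 1 on the log2 scale were mostly missed. Those counts were drawn with the dispersion fitted to the 9 libraries (common value 0.263, against 0.130 with only the 6 day-8 libraries). They also gave all guides to a changed gene the same change, whereas in the screen the GRB2 guides ranged from -3.18 to -0.58. How many such changes were missed in the screen itself was not tested.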

Other observations

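SLC35B2 and EXTL3 both act in the making of heparan sulfate, so the other genes of that route were looked up after their values had been seen, and no test was made of the list. Of 27 tested genes for the linker, the chain and its sulfation, 2 were called and 7 were at an unadjusted p under 0.05, all on the depleted side, and 13 were lower in vemurafenib within all 3 replicate numbers, with a list median of -0.29. These counts include SLC35B2 and EXTL3, which prompted the list. Over all 19102 genes tested, 500 (2.62%) were on the depleted side at that level, 2205 were lower in vemurafenib within all 3 replicate numbers, and the median was 0.02. B4GALT7 and B3GALT6, which build the linker that joins the chain to its core protein, had medians of -1.02 and -0.57 (edgeR/RRA adjusted p = 0.357 and 0.411). B4GALT7 guides had 14.1, 10.0 and 8.14 CPM in vemurafenib, against 44.5, 16.8 and 16.2 CPM in DMSO, with no overlap. The epimerase GLCE had -0.68, the sulfotransferase HS6ST2 -0.35 and the xylosyltransferase XYLT2 -0.61. Other members did not share this: HS6ST1 and EXTL2 each had -0.04, and the highest median in the list was 0.45. In the list 1 gene was higher in vemurafenib within all 3 replicate numbers. The polymerases EXT1 and EXT2 had -0.53 and -0.13 (edgeR/RRA adjusted p = 0.956 and 1). At day 14 the median of the 27 genes was -0.45, and B4GALT7 and B3GALT6 had -1.94 and -1.51 (edgeR/RRA adjusted p = 0.736 and 0.811). The 11 genes of chondroitin sulfate synthesis, which use the same linker, had a median of 0.08 and none at an unadjusted p under 0.05.

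Guides to MORC2, a chromatin protein that works with HUSH, stood at 370, 174 and 212 CPM in vemurafenib, against 270, 146 and 119 CPM in DMSO and 52.8, 32.8 and 34.2 CPM at day 0. The drug effect was 0.51 (edgeR/RRA adjusted p = 0.872).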
